A study of Mus musculus with 6 samples.

Results

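Rab GTPases are small GTP-binding proteins that sit on the membranes of a cell's compartments and recruit the machinery of vesicle budding, transport, tethering and fusion. They were taken here as the protein-coding genes whose symbol is Rab followed by a number and at most 1 letter, which gave 59 of the 55401 genes in the count tables. The RNA came from RAW264.7, a mouse macrophage line grown out of the ascites of a tumour that Abelson murine leukemia virus had induced, and the study looks at the role there of NOP16, a protein of the nucleolus that helps to assemble the large ribosomal subunit. Poly(A)-selected, strand-specific libraries were labelled Nop16 siRNA with the genotype entry Nop16 KD (3 libraries) or control siRNA with the genotype entry WT (3 libraries). Both groups carry the same treatment text, Nop16 siRNA at 20 nM with a lipid reagent for 3 days, and the sources used here do not say how control cells were transfected. All libraries come from the same line, and no label says that replicates were separate cultures, so the p-values rest on a spread between samples that may be technical only.

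A Rab protein cycles between a GTP-bound form on membranes and a GDP-bound form that GDI proteins hold in the cytosol. Guanine nucleotide exchange factors (GEFs) load GTP, GTPase-activating proteins (GAPs) speed its hydrolysis, and effectors bind the GTP form and carry out the transport step. In macrophages a new phagosome first carries Rab5, then exchanges it for Rab7 as it matures towards fusion with lysosomes, while Rab11 and Rab4 return membrane to the surface and Rab8, Rab10 and Rab27 act in secretion.

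Total counts ran from 15601477 to 18635089 in the Nop16 siRNA libraries and from 19778237 to 23061922 in the control libraries, and a gene with 3 counts lay at 0.129 to 0.194 CPM, a floor that covers counting error only. Nop16 itself had 61, 72 and 84 counts in the Nop16 siRNA libraries, against 388, 437 and 402 in the control libraries. It stood at 4.22 ± 0.316 CPM after Nop16 siRNA and at 18.9 ± 1.26 CPM in controls (SD, n = 3 each), with a log2 fold change of -2.16 (SE 0.12, edgeR adjusted p = 2.94e-23). CPM throughout are TMM-scaled, and fold changes are Nop16 siRNA over control siRNA.

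A majority of the measurable Rab genes was higher after Nop16 siRNA, by small amounts. Of the 59 genes, 44 passed the filter on low counts, and of these 24 rose (54.5%), 5 fell (11.4%) and 15 did not pass an edgeR adjusted p of 0.05. Over all 14269 genes tested, 23.0% were higher and 22.4% lower (45.4% in all), and over the 11579 protein-coding genes tested 26.4% were higher and 23.5% lower. The median log2 fold change was 0.157 over the Rab genes and 0.013 over protein-coding genes, and 33 of the 44 Rab genes lay above zero and 11 below. The rises ran from 1.08-fold in Rab7, the Rab of late endosomes and lysosomes, to 1.42-fold in Rab20, which acts on early phagosomes, with a median of 1.2-fold. Among the 29 called Rab genes, Rab39 alone differed by over 1.5-fold, as a fall, and none differed by over 2-fold. Of all 6482 called genes, 1487 and 425 did. All 3 libraries of one group lay above those of the other for 24 Rab genes in the direction of a rise and for 5 in the direction of a fall, against 26.3% and 26.2% of all genes tested. The tested Rab genes also carried more counts than tested protein-coding genes in general, with a median of 53 against 31.2 CPM, and the part of this in the share called was not tested.

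**Figure D1:**
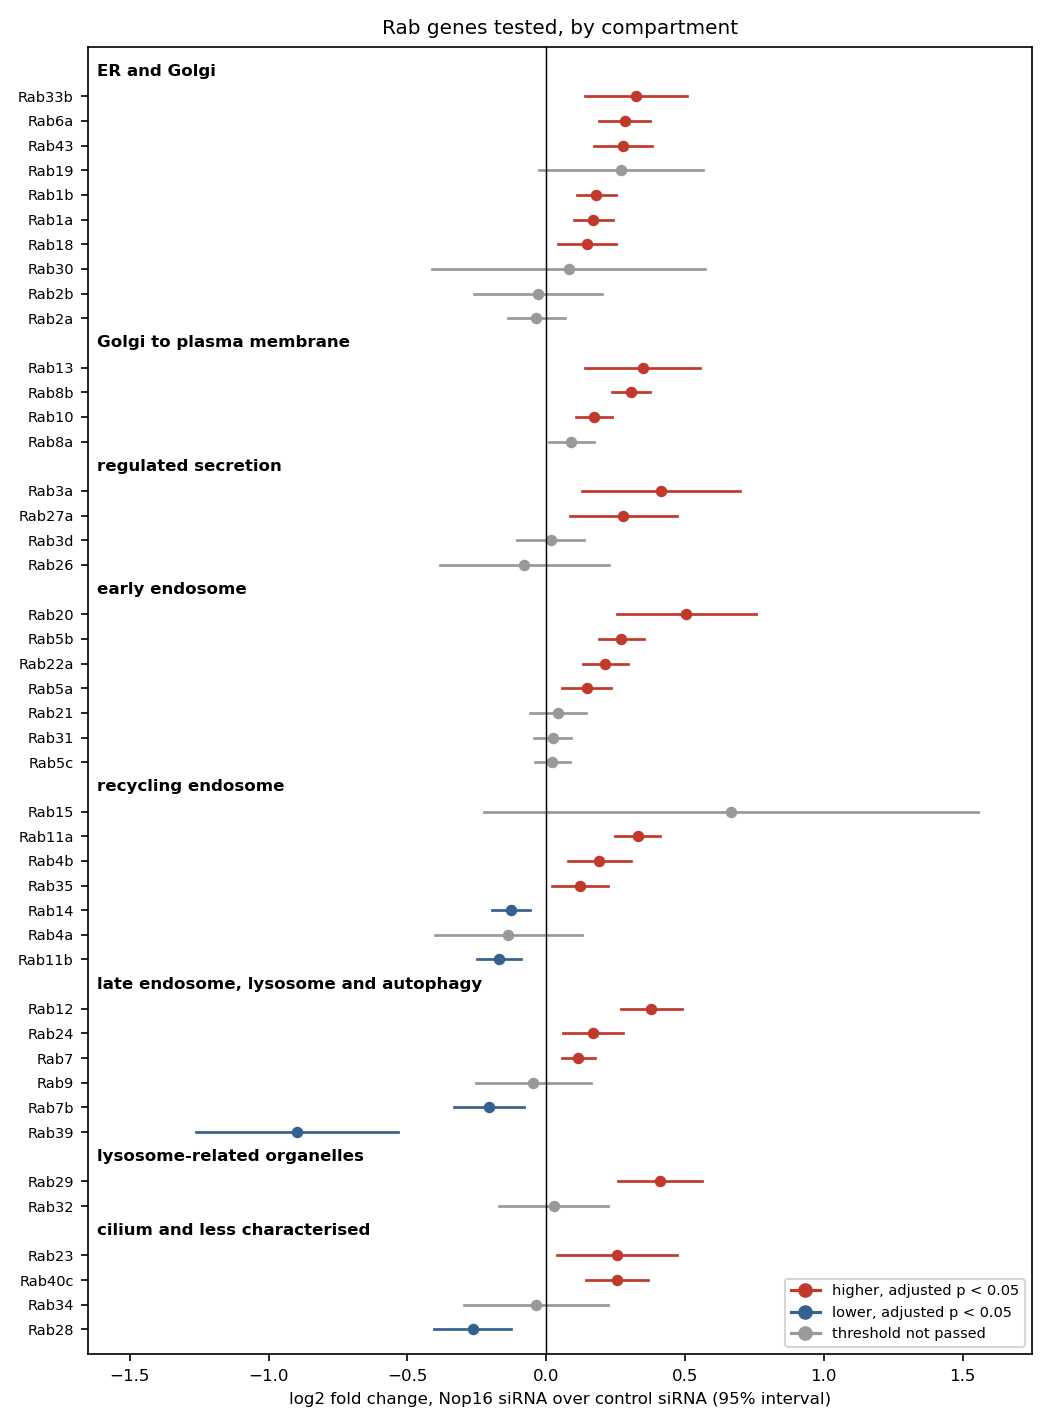
Log2 fold change (Nop16 siRNA over control siRNA, horizontal axis) of the 44 tested Rab genes, grouped down the page by compartment, with points for the estimate and bars for the 95% interval. Red marks the 24 genes that rose, blue the 5 that fell and grey the 15 that did not pass, and red points are found in each of the 8 groups.

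The summed level of the Rab genes was 3610, 3587 and 3628 CPM in the Nop16 siRNA libraries, against 3335, 3339 and 3289 CPM in the control libraries, so the groups did not overlap. In bulk RNA, more cells that express a gene and more RNA per cell cannot be told apart. Tested against a minimum fold of 1.2, Rab20, Rab29 and Rab12 were higher and Rab39 was lower, and the other 25 calls were lost. At that setting 3 of 44 Rab genes were higher and 1 lower, against 1108 and 1253 of all 14269 genes tested. The share of Rab genes called higher was thus no larger there than the share of all genes. Of the 29 calls, 22 held in each of the other 16 alternatives, and the 7 that did not are given with their genes below.

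Sorted by the compartment each Rab is best known for, rises were called in all 8 groups and falls in 3 of them, beside 23.0% higher and 22.4% lower over all genes tested. Of the Rabs of the ER and Golgi, 10 of 13 were tested, and 6 rose and none fell (median log2 fold change 0.175). Early endosome Rabs were all tested, with 4 of 7 higher and none lower (0.145), and of the 4 Rabs of traffic from the Golgi to the plasma membrane 3 were higher and none lower (0.239). Late endosome, lysosome and autophagy Rabs had 3 higher and 2 lower of 6 tested (0.035), and recycling endosome Rabs had 3 higher and 2 lower of 7 tested (0.122). Regulated secretion had 2 higher of 4 tested (0.148), lysosome-related organelles 1 higher of 2 (0.219), and the group of ciliary and less characterised Rabs 2 higher and 1 lower of 4 (0.109). Whether compartments differ from each other was not tested, and several Rabs act in more than 1 of them.

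RAW264.7 cells expressed a broad but uneven set of Rabs. Per length, Rab7 led in both groups with 349 TPM after Nop16 siRNA and 312.5 TPM in controls. It was followed by the early endosome gene Rab5c (287 and 275 TPM), the ER-to-Golgi gene Rab1b (197 and 169 TPM) and Rab10, which acts in delivery to the plasma membrane (128 and 111 TPM). These 4 genes made up 43% of the summed Rab TPM in the control libraries. Between neighbours in the order of the 44 tested genes, 22 of 43 pairs overlapped in the control libraries, among them Rab10 and Rab31, so the order within such pairs is not resolved. TPM set each library's total to a fixed sum, and on that scale the median log2 ratio over the 10790 genes of at least 5 CPM was 0.051, against 0.008 in scaled CPM, so differences are read from CPM.

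**Figure D2:**
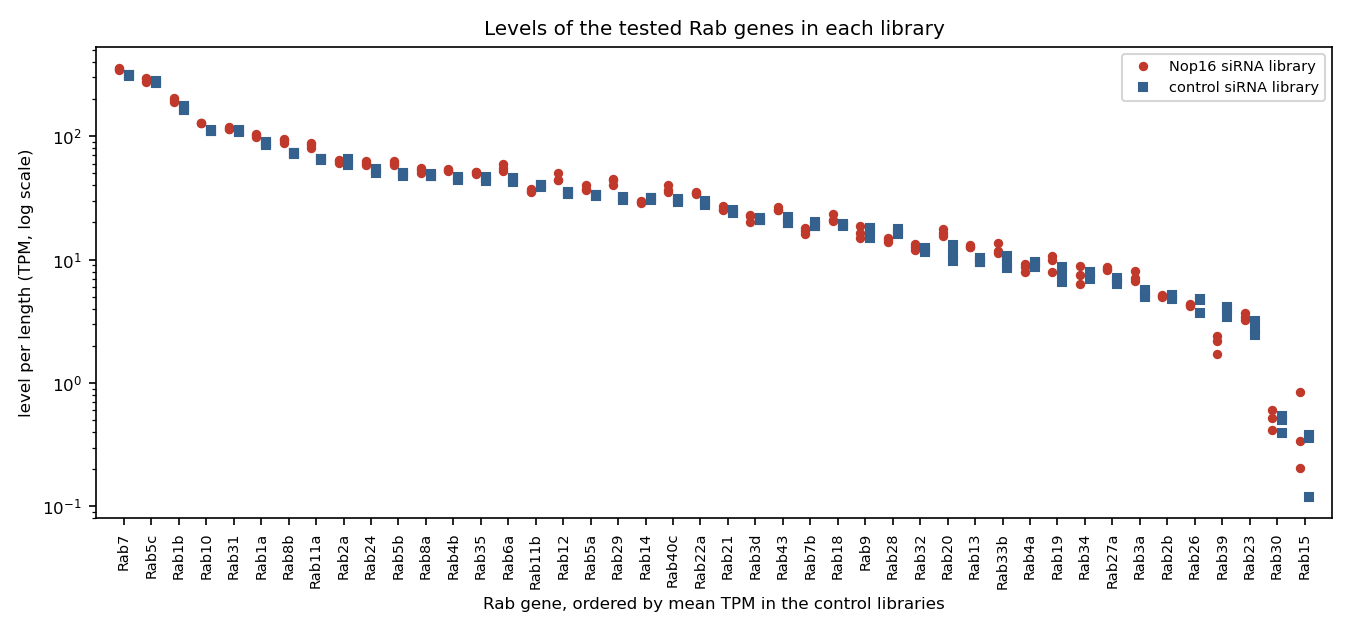
Level per length (TPM, log scale, vertical axis) of the 44 tested Rab genes in each library, ordered by the control mean, with red circles for the 3 Nop16 siRNA libraries and blue squares for the 3 control libraries. Levels run from Rab7 at 312.5 TPM in controls to Rab15 at 0.285 TPM.

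The other 15 Rab genes were not tested. No library held a count of Rab6b, Rab9b, Rab17, Rab27b, Rab38, Rab39b, Rab3c or Rab40b, which allows up to 0.194 CPM in the smallest library. Rab25, Rab33a, Rab36, Rab37, Rab42, Rab44 and Rab3b had a few counts, at most 0.645 CPM in any library. Among these are Rabs best known from other cells, such as the epithelial Rab17 and Rab25, the neuronal Rab3c and the pigment cell gene Rab38.

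Since many Rab genes rose together, their promoters were searched for 3 short motifs: CACGTG, the E-box that MITF and TFE family factors of lysosomal gene control can bind, TGACTCA of AP-1 and CCGGAAG of ETS factors. The windows are RefSeq's on GRCm38.p6, from 250 bases before to 50 after each listed start, and were matched for 48 Rab genes and 27025 genes in all, with 1 chromosome not used. Both strands were read, CACGTG is the same on both, and a gene counts where any of its starts holds the motif. CACGTG was found in 6 of 48 Rab genes (12.5%), against 8.09% of all genes and 12% of tested protein-coding genes. By call it was found in 5 of 23 Rab genes that rose and in 0 of 4 that fell. It was found in 1 of 11 that did not pass and in 0 of 10 not tested. Among protein-coding genes that rose the share was 13.2%. Of the Rab genes with CACGTG that rose, Rab5a, Rab23, Rab24 and Rab27a lost their call in some alternative other than the minimum fold. Rab20 kept its call in all of them. TGACTCA was found in 3 Rab genes (6.25%, against 5.95% of all genes), none of them among the genes that rose, and CCGGAAG in 5 (10.4%, against 9.93% of all genes and 21.7% of tested protein-coding genes). None of the CACGTG matches overlapped another of these motifs. A match is a description of the sequence and not a site of binding.

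The CACGTG matches are shown because they are the motif found most often in the Rab genes that rose. The choice was thus made from these calls, and a link between motif and rise was not tested. The lines give the 5′ to 3′ sequence on the gene's strand with the motif in capitals and 12 bases on each side, fewer where the window ends. Rab20 has its match 46 bases before the listed start, in the window chr8:11478591-11478890 on the minus strand. Both the match and that start lie inside the counted gene model, which reaches to 11478710. Rab5a holds matches 235 and 95 bases before its start, in chr17:53478984-53479283 on the plus strand. In Rab23 the match lies 218 bases before 1 of its listed starts (chr1:33719646-33719945, plus), and in Rab24 it opens at base 3 of the transcript (chr13:55321931-55322230, minus). The Rab27a match lies 246 bases before a start inside the counted gene model (chr9:73063898-73064197, plus). Rab21, which did not pass, has its match 30 bases before the start (chr10:115315542-115315841, minus).
Rab20: cggccgggcaccCACGTGgtcgcagggctg
Rab5a, first match: aattggagaagaCACGTGacgcaaccccac
Rab5a, second match: acccggggatgtCACGTGacttcggccccg
Rab23: cttcagtgctacCACGTGagtctcaggtgg
Rab24: cggcgcccgcgtCACGTGaccgggcgtccc
Rab27a: cttgCACGTGctcctccgtctg
Rab21: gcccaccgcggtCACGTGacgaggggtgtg

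Early endosome Rabs included the largest rise of the family. Rab20, an early phagosome and endosome Rab (chr8:11453518-11478710), stood at 11.8, 10.2 and 11.1 CPM in the Nop16 siRNA libraries, against 6.75, 7.57 and 9.04 CPM in the control libraries. Its lowest Nop16 siRNA library lay above its highest control library, and it rose 1.42-fold (95% interval 1.19 to 1.69, adjusted p = 0.000627). Rab5b, 1 of 3 Rab5 genes that drive early endosome fusion, had 118, 125 and 123.5 CPM after Nop16 siRNA, against 102.5, 98.3 and 103 CPM in controls. The groups were separate, and the gene rose 1.21-fold (adjusted p = 7.95e-08). Rab22a, which acts in early endosomes and recycling, rose 1.16-fold (adjusted p = 1.21e-05). Rab5a rose 1.11-fold (adjusted p = 0.00569), a call that was lost without Nop16 siRNA replicate 1 (adjusted p = 0.0665, over a range of 0.00157 to 0.0665 in the alternatives). Rab5c, the most abundant early endosome Rab, had 312, 303 and 289.9 CPM in the Nop16 siRNA libraries, against 297, 304 and 291 CPM in the control libraries. These overlapped, and its fold of 1.02 had a 95% interval of 0.971 to 1.06 (adjusted p = 0.618). Rab31, which works between the trans-Golgi network and endosomes, and Rab21, which acts in integrin uptake, had log2 fold changes of 0.023 and 0.043 and did not pass either.

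Late endosome and lysosome Rabs moved both ways. Rab7 had 440.3, 422 and 445.5 CPM in the Nop16 siRNA libraries, against 407.5, 404 and 395 CPM in the control libraries. Every Nop16 siRNA library lay above every control library, by a small margin, and the rise was 1.08-fold (SE 0.0297 on the log2 scale, adjusted p = 0.000948). Rab12, which acts in degradation of recycling receptors and in autophagy (chr17:66494512-66519729), had 63.8, 64 and 73.9 CPM after Nop16 siRNA, against 51.8, 50.9 and 52.7 CPM in controls. Nop16 siRNA replicate 3 was its highest library, no library crossed between the groups, and the rise was 1.3-fold (95% interval 1.21 to 1.4, adjusted p = 3.04e-08). Rab24, an autophagy Rab, rose 1.12-fold (adjusted p = 0.00864), and its call was lost without control replicate 2 (adjusted p = 0.0818, over a range of 0.00506 to 0.0818 in the alternatives).

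Rab7b, which acts between late endosomes and the trans-Golgi network, stood at 35.9, 37.6 and 40.4 CPM in the Nop16 siRNA libraries, against 46, 42.6 and 43 CPM in the control libraries. It was thus lower in each Nop16 siRNA library, with a log2 fold change of -0.21 (SE 0.0625, adjusted p = 0.00518). Rab39, whose human counterpart RAB39A acts in phagosome acidification and autophagy (chr9:53684110-53706232), showed the largest fall of the family. Its mean of 4.31 CPM is under the level set for giving values in every library, and it was chosen after its values were seen. It had 2.46, 3.11 and 3.42 CPM after Nop16 siRNA, against 5.02, 6.02 and 5.83 CPM in controls, from 38, 54 and 63 counts against 110, 140 and 116. No library crossed between the groups, and the log2 fold change was -0.90 (fold 0.537, 95% interval 0.417 to 0.69, adjusted p = 3.38e-05). Rab9, which returns receptors from late endosomes to the Golgi, had a log2 fold change of -0.046 and did not pass (adjusted p = 0.752).

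Among Rabs of recycling endosomes, the Rab11 paralogs moved in opposite directions. Rab11a, which returns receptors to the surface (chr9:64715299-64737758), had 121, 115 and 126 CPM in the Nop16 siRNA libraries, against 96.2, 96.1 and 96.3 CPM in the control libraries. The control libraries were almost equal, and the gene rose 1.26-fold (95% interval 1.19 to 1.33, adjusted p = 7.73e-10). Rab11b (chr17:33742484-33760530) had 104, 109 and 105.5 CPM after Nop16 siRNA, against 117, 120.4 and 120.5 CPM in controls. It was lower in all 3 Nop16 siRNA libraries, with a log2 fold change of -0.17 (SE 0.0397, adjusted p = 0.000299). Rab14, which links the trans-Golgi network with endosomes, had 187, 194 and 191.5 CPM in the Nop16 siRNA libraries, against 213, 208.5 and 204 CPM in the control libraries. The groups did not overlap, and its log2 fold change was -0.13 (adjusted p = 0.00139). Rab4b, a Rab of fast recycling, rose 1.14-fold (adjusted p = 0.00423), while Rab4a did not pass (log2 fold change -0.14, adjusted p = 0.426). Rab35 rose 1.09-fold (adjusted p = 0.0417). That call was lost in DESeq2, in scaling by library size only, with no filter, among protein-coding genes only and without Nop16 siRNA replicate 1 or 3 or control replicate 1 or 3, at adjusted p up to 0.206 and over a range of 0.0162 to 0.206 in the alternatives. Rab15 had between 6 and 32 counts per library and did not pass (log2 fold change 0.67, SE 0.441, adjusted p = 0.228).

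All 4 Rabs of traffic from the Golgi to the plasma membrane stood higher in each Nop16 siRNA library than in any control library, and 3 of them passed the threshold. Over all genes tested, 26.3% were higher without overlap. Rab8b, which acts in exocytosis of surface proteins, had 201, 210.4 and 216.5 CPM in the Nop16 siRNA libraries, against 168, 171 and 169 CPM in the control libraries. The gap between the groups was wider than the range within either, and the rise was 1.24-fold (95% interval 1.18 to 1.3, adjusted p = 3.67e-11). Rab10 had 214.5, 215 and 218 CPM after Nop16 siRNA, against 192, 192 and 191 CPM in controls. Both groups were tight, and it rose 1.13-fold (adjusted p = 1.43e-05). Rab13, which acts in delivery to junctions and the surface, had 13.9, 13.9 and 14.6 CPM in the Nop16 siRNA libraries, against 11.7, 10.8 and 10.9 CPM in the control libraries. The groups were separate, with a rise of 1.27-fold (adjusted p = 0.00436). Rab8a had a log2 fold change of 0.090 (adjusted p = 0.0622). It passed with libraries thinned to equal depth (0.0413), without Nop16 siRNA replicate 3 (0.0429) and without control replicate 2 (0.0484), over an adjusted p range of 0.0413 to 0.291.

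The ER and Golgi group was led by Rab33b, Rab6a and Rab43. Rab33b, a Golgi Rab that binds the autophagy protein ATG16L1, had 23.1, 18.9 and 20.2 CPM in the Nop16 siRNA libraries, against 18.7, 16 and 14.9 CPM in the control libraries. The margin between the groups was narrow, with a rise of 1.25-fold (95% interval 1.1 to 1.42, adjusted p = 0.00282). Rab6a, which acts in transport back through the Golgi, had 93.1, 105 and 100 CPM after Nop16 siRNA, against 84.3, 82.1 and 78.5 CPM in controls. No library crossed, and it rose 1.22-fold (adjusted p = 4.61e-07). Rab43, another Golgi Rab, had 66.6, 69.3 and 66.7 CPM in the Nop16 siRNA libraries, against 54.1, 53.3 and 60.1 CPM in the control libraries. The groups were separate, and the rise was 1.21-fold (adjusted p = 1.20e-05). The ER-to-Golgi gene Rab1b had 224, 212 and 208 CPM after Nop16 siRNA, against 189, 196 and 182 CPM in controls. It rose 1.13-fold (adjusted p = 1.86e-05), with separate groups, and its paralog Rab1a rose 1.13-fold (adjusted p = 4.73e-05). Rab18, a Rab of the ER and lipid droplets, rose 1.11-fold (adjusted p = 0.0152). Its call was lost without control replicate 2 (adjusted p = 0.064) and without Nop16 siRNA replicate 3, where the log2 fold change was 0.080 (adjusted p = 0.28, over a range of 0.00328 to 0.28 in the alternatives). Rab2a, Rab2b, Rab30 and Rab19 did not pass, with log2 fold changes of -0.036, -0.030, 0.081 and 0.27. Rab19 passed without Nop16 siRNA replicate 1 (adjusted p = 0.0491, over a range of 0.0491 to 0.427).

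Regulated secretion and lysosome-related organelles held fewer measurable Rabs. Rab3a, best known from synaptic vesicles, had 7.62, 7.08 and 8.69 CPM in the Nop16 siRNA libraries, against 5.84, 6.24 and 5.48 CPM in the control libraries. Nop16 siRNA replicate 3 was the highest, the groups were separate, and the rise was 1.33-fold (95% interval 1.09 to 1.62, adjusted p = 0.0133). It was lost without Nop16 siRNA replicate 3 (adjusted p = 0.108) and without control replicate 3 (0.0538), over a range of 0.0096 to 0.108 in the alternatives. Rab27a, which docks secretory granules and exosome-forming compartments, had 15.5, 16 and 15.3 CPM after Nop16 siRNA, against 12.3, 13.4 and 12.8 CPM in controls. Its groups were separate, and the rise of 1.21-fold (adjusted p = 0.0151) was lost without control replicate 1 (adjusted p = 0.0693, over a range of 0.00281 to 0.0693). Rab3d, the most abundant of this group per length, had 46.7, 45.2 and 41 CPM in the Nop16 siRNA libraries, against 45.2, 43 and 43 CPM in the control libraries. The groups overlapped, with a log2 fold change of 0.017 (adjusted p = 0.849), and Rab26 did not pass (log2 fold change -0.079). Rab29, a partner of the kinase LRRK2 (chr1:131867224-131872887), had 31.6, 28.3 and 31.1 CPM after Nop16 siRNA, against 23.7, 22.8 and 22 CPM in controls. All Nop16 siRNA libraries were above all controls, and it rose 1.33-fold (95% interval 1.2 to 1.48, adjusted p = 8.19e-06). The related Rab32, which acts in melanosomes and in defence against intracellular bacteria, had a log2 fold change of 0.027 and did not pass (adjusted p = 0.849).

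Of the ciliary and less characterised Rabs, Rab40c, whose protein joins a ubiquitin ligase, had 54.4, 58.6 and 52.2 CPM in the Nop16 siRNA libraries, against 45.3, 46.3 and 46.8 CPM in the control libraries. It was higher in each Nop16 siRNA library and rose 1.19-fold (adjusted p = 0.000138). Rab28, a Rab of cilia and photoreceptors, had 32.2, 29.6 and 31.3 CPM after Nop16 siRNA, against 39.7, 36.2 and 36 CPM in controls. It was lower in each Nop16 siRNA library, with a log2 fold change of -0.27 (SE 0.0686, adjusted p = 0.00103). Rab23, which restrains Hedgehog signalling, had 12.9, 14.4 and 13.6 CPM in the Nop16 siRNA libraries, against 13.2, 9.94 and 11.3 CPM in the control libraries. Control replicate 1 lay within the Nop16 siRNA range, so the groups overlapped. Its rise of 1.19-fold was at the threshold (adjusted p = 0.0486) and was lost in 10 of the 16 alternatives other than the minimum fold, with adjusted p over a range of 0.0111 to 0.305. Among these were DESeq2 (0.113), the replicate block (0.05) and leaving out control replicate 2 (0.305), which also lowered its log2 fold change to 0.159. Rab34 did not pass (log2 fold change -0.036).

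**Figure D3:**
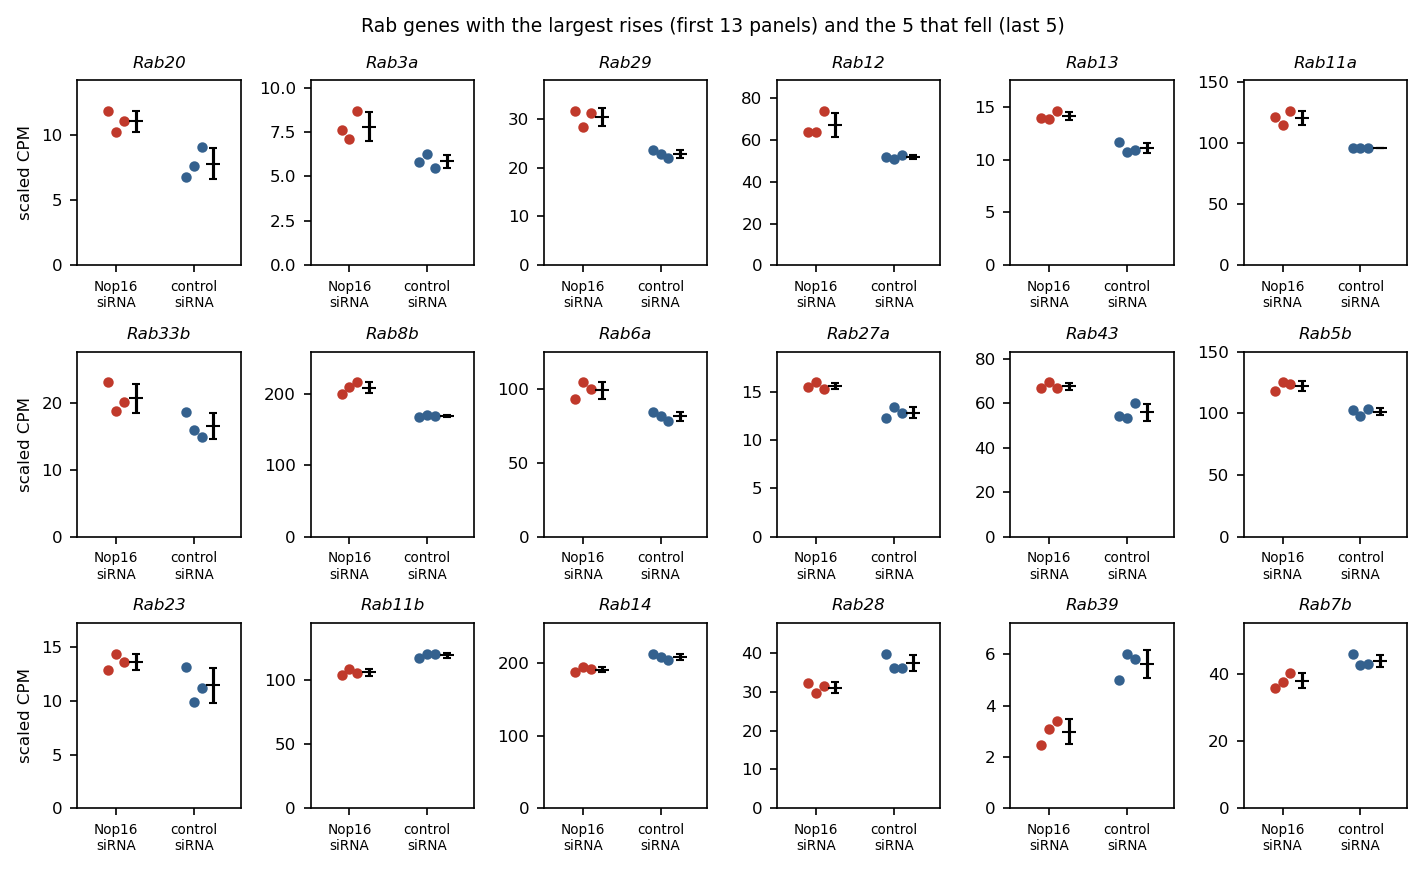
Scaled CPM (vertical axes, from 0) of 18 Rab genes in the 3 Nop16 siRNA libraries (red) and the 3 control libraries (blue), with bars for mean ± SD. The first 13 panels are the largest rises at a mean of at least 5 CPM and the last 5 are the genes that fell. In the panel of Rab39 the Nop16 siRNA libraries sit at 2.46, 3.11 and 3.42 CPM and the controls at 5.02, 6.02 and 5.83 CPM, and of these 18 genes Rab23 is the one whose groups overlap.

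Some of these counts hold reads that could belong to other genes, since multi-mapped fragments and fragments over several genes were counted. Rab43 shares 75.4% of its exonic length with the gene model Gm45140, which was also called higher (adjusted p = 0.00224). Rab4b shares 65% of its length with Gm21983, which was called higher too (adjusted p = 0.00479). In the Nop16 siRNA libraries Rab4b had 771, 879 and 937 counts and Gm21983 nearly the same, 759, 874 and 925. Fragments over a shared part count for both genes, so the rises of Gm45140 and Gm21983 are not separate from those of Rab43 and Rab4b. Stretches of at least 100 bases at 95% identity or more to another transcript covered 41.9% of the longest transcript of Rab9, 29.8% of Rab2a, 28.8% of Rab7, 20.4% of Rab5b, 17.3% of Rab6a and 13.1% of Rab11b. Rab7-ps1, a copy of Rab7, stood at 55.3 TPM after Nop16 siRNA and 51.2 TPM in controls and did not pass (adjusted p = 0.569). Rab11b-ps2 stood at 27.9 and 33.1 TPM, close to the 36.1 and 39.5 TPM of Rab11b, and was lower after Nop16 siRNA as well (adjusted p = 0.0392). That call was lost in DESeq2, with no filter, with thinning and on leaving out any library but control replicate 3 (adjusted p over a range of 0.0257 to 0.119). The values of these genes, 6 of them among the 29 called, are uncertain to that extent.

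Within several subfamilies the paralogs' shares did not overlap between the groups, though no share could pass a test. For 10 subfamilies with at least 2 tested members, the share of each paralog in the summed TPM was compared with an exact permutation test over libraries, two-sided, which cannot go below 0.1 with 3 against 3. Over all genes tested, CPM did not overlap between the groups in 52.5%. Rab11a made up 70.5%, 68.4% and 71.1% of Rab11 TPM in the Nop16 siRNA libraries, against 62.7%, 62.1% and 62.1% in the control libraries. The groups did not overlap, and the difference was 7.69 percentage points (exact p = 0.1). Rab29 made up 77.3% ± 0.419 of the summed Rab29 and Rab32 TPM after Nop16 siRNA and 72.3% ± 0.777 in controls (SD, n = 3 each). Rab3a made up 25% ± 3.13 of Rab3 TPM after Nop16 siRNA and 20.1% ± 1.17 in controls, a difference of 4.82 points that was 3.02 without Nop16 siRNA replicate 3. The share of Rab8b was 63.6% ± 1.85 after Nop16 siRNA and 60.1% ± 0.466 in controls, and that of Rab4b was 86.1% ± 0.761 and 83.2% ± 0.582. Rab5b was at 15.8% ± 0.842 of Rab5 TPM after Nop16 siRNA and 13.7% ± 0.535 in controls, while Rab5c was at 74.4% ± 0.76 and 77% ± 0.728. Shares of Rab22a over Rab31 and of Rab7 over Rab7b were also higher in each Nop16 siRNA library, by 2.26 and 1.11 points, and the difference for Rab7 was 1.81 points without division by length. Shares of Rab1a, Rab2a and Rab5a overlapped between the groups (differences of -0.193, 0.0078 and 0.499 points, exact p = 0.9, 1 and 0.3). Each share whose groups did not overlap had an exact p of 0.1, the smallest the design allows, so none could pass 0.05.

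**Figure D4:**
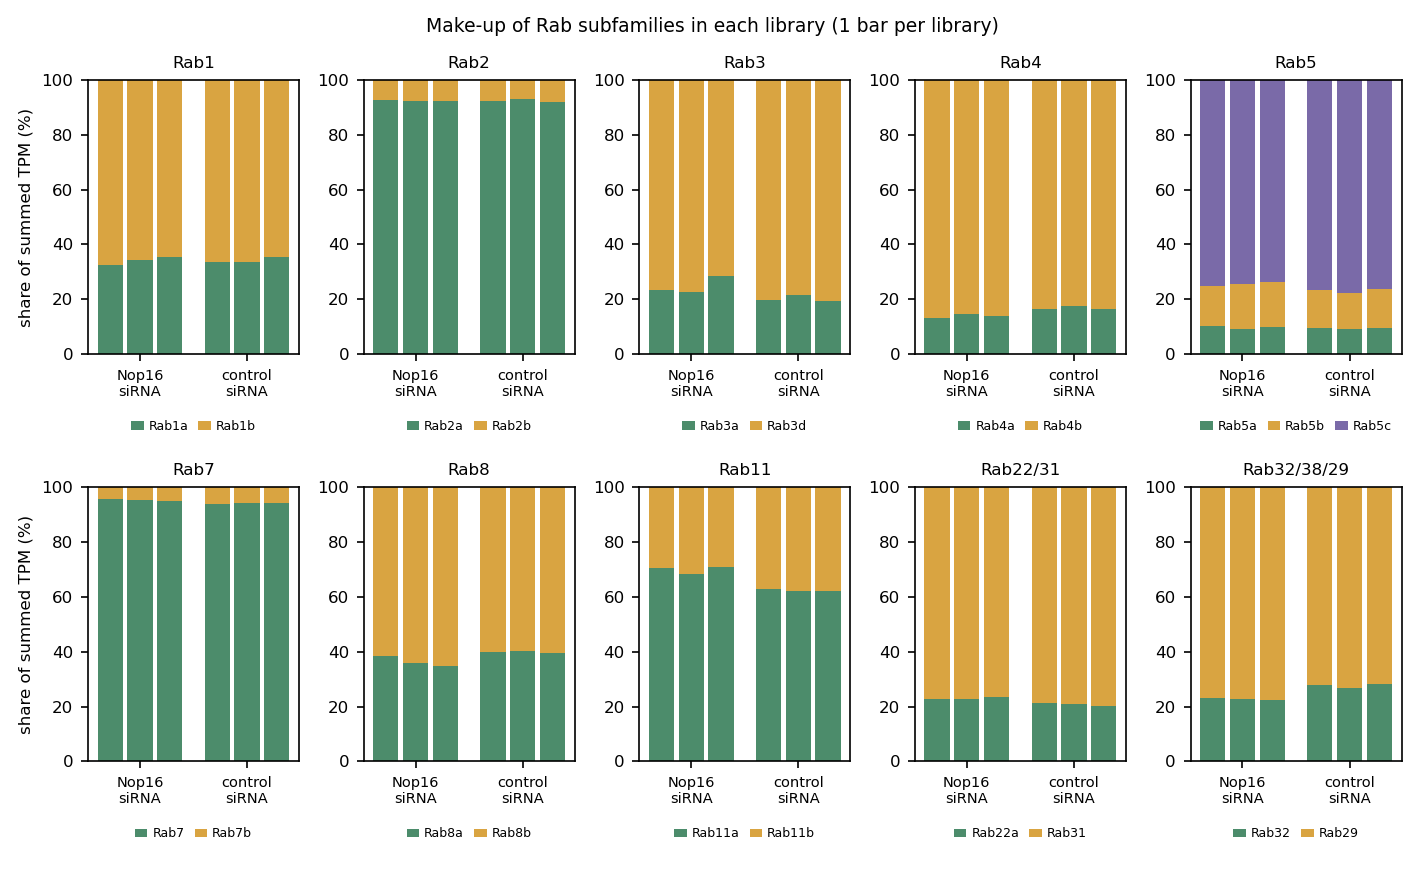
Share of each paralog in the summed TPM of its Rab subfamily (vertical axis, %), with 1 stacked bar per library, the 3 Nop16 siRNA libraries on the left and the 3 control libraries on the right of each panel. The Rab11 panel shows Rab11a at 70% ± 1.4 after Nop16 siRNA and 62.3% ± 0.379 in controls, and the Rab1 and Rab2 panels show overlapping groups.

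Genes that act on Rabs or through them changed in both directions. Across 119 tested genes of 5 lists, 43 were higher and 23 lower, and over all genes tested 23.0% were higher and 22.4% lower. Among the 8 genes of prenylation, GDI and membrane insertion, 3 were higher and 2 lower (median log2 fold change 0.011). Gdi2, which extracts GDP-bound Rabs from membranes, had 315 ± 5.94 CPM after Nop16 siRNA and 364 ± 7.23 CPM in controls (SD, n = 3 each) and fell, with a log2 fold change of -0.21 (adjusted p = 4.43e-08). Rabif, a chaperone of nucleotide-free Rabs, rose 1.22-fold, and Rabggtb, the catalytic subunit gene of the enzyme that adds the lipid anchor to Rabs, had a log2 fold change of -0.27 (adjusted p = 0.000732 and 0.00168).

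Of 33 GEF genes tested, 13 were higher (39.4%, against 23.0% of all genes tested) and 8 lower (24.2%, against 22.4%), with a median log2 fold change of 0.063. Rin1, a Rab5 GEF, had 4.26, 4.38 and 4.72 CPM in the Nop16 siRNA libraries, against 10.5, 8.65 and 11.8 CPM in the control libraries. It was lower in each Nop16 siRNA library, at 0.435 of the control level (95% interval 0.356 to 0.531, adjusted p = 2.11e-10). Dennd6a, a Rab14 GEF, had 28, 32.5 and 27.6 CPM after Nop16 siRNA, against 44.5, 45.1 and 45.4 CPM in controls. Like Rab14 it was lower in all 3 Nop16 siRNA libraries, with a log2 fold change of -0.62 (adjusted p = 1.02e-11). Dennd2a, a Rab9 GEF, rose 1.57-fold (adjusted p = 3.69e-07), and C9orf72, a DENN protein that works in a complex with SMCR8, rose 1.47-fold (adjusted p = 4.98e-09).

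Of 35 GAP genes tested, 9 were higher (25.7%) and 8 lower (22.9%), shares near the 23.0% and 22.4% of all genes tested, with a median log2 fold change of 0.060. Tbc1d9, which carries the TBC domain of Rab GAPs, had 11.6, 12.7 and 11.7 CPM in the Nop16 siRNA libraries, against 6.06, 5.51 and 4.77 CPM in the control libraries. Each Nop16 siRNA library was above every control, and the rise was 2.2-fold (adjusted p = 5.03e-11). Tbc1d2, a Rab7 GAP, had 24.5, 27.9 and 25.7 CPM after Nop16 siRNA, against 17.3, 13 and 14.3 CPM in controls. The groups were separate, and it rose 1.76-fold (adjusted p = 2.87e-11), beside 1.08-fold for Rab7. Usp6nl, a GAP of Rab5 and Rab43, had a log2 fold change of -0.65 (adjusted p = 0.000556), and Tbc1d4, a GAP of Rab10 and other Rabs in insulin-regulated exocytosis, of -0.53 (adjusted p = 0.000137).

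Effectors and tethers had 18 higher (47.4%, against 23.0% of all genes tested) and 4 lower (10.5%, against 22.4%) of 38 tested, with a median log2 fold change of 0.097. Rilp, which links Rab7 to dynein, had 9.37, 7.08 and 6.84 CPM in the Nop16 siRNA libraries, against 4.7, 4.73 and 4.42 CPM in the control libraries. Nop16 siRNA replicate 1 was the highest, the groups were separate, and the rise was 1.67-fold (adjusted p = 5.06e-05). Rbsn, the Rab4 and Rab5 effector rabenosyn-5, had 47.6, 53.1 and 46.9 CPM after Nop16 siRNA, against 34.7, 33.7 and 31.8 CPM in controls. It rose 1.47-fold (adjusted p = 3.53e-11) with no overlap. Rilpl2, which binds phosphorylated Rab8 and Rab10, rose 1.39-fold (adjusted p = 6.07e-10). Osbpl1a, the Rab7 effector ORP1L that senses cholesterol, had a log2 fold change of -0.47 (adjusted p = 0.00027). Of 5 Rab-like GTPases tested none was higher in edgeR, and Rabl6 was lower (log2 fold change -0.22, adjusted p = 3.52e-05).

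**Figure D5:**
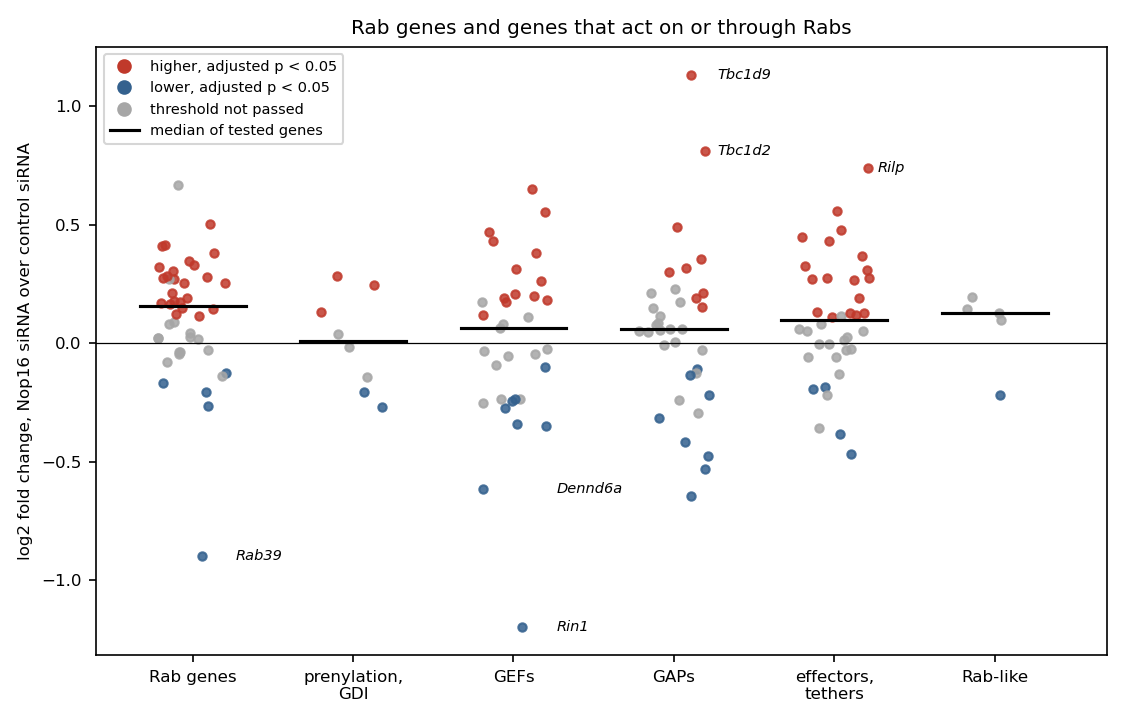
Log2 fold change (Nop16 siRNA over control siRNA, vertical axis) of the tested Rab genes and of the tested genes in 5 lists of Rab regulators and partners, 1 point per gene, with red for higher, blue for lower, grey for not passed and a black line for the median. The medians are 0.157 for Rab genes, 0.011 for prenylation and GDI, 0.063 for GEFs, 0.060 for GAPs, 0.097 for effectors and 0.126 for Rab-like GTPases, and Tbc1d9 is the highest point.

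The macrophage label was met by its markers, apart from a low level of Adgre1. That gene had 5.07 TPM after Nop16 siRNA and 4.89 TPM in controls, below the neutrophil marker Csf3r at 8.45 and 7.01 TPM. All 10 macrophage markers were tested, 6 higher and 2 lower (23.0% and 22.4% over all genes tested). The higher ones were Csf1r, Cd68, Itgam, Cd14, Mertk and Lyz2, with log2 fold changes of 0.35, 0.35, 0.50, 0.70, 0.75 and 1.36. Fcgr1 (-0.36) and Ptprc (-0.13) were lower, and Adgre1 (0.005) and Spi1 (-0.024) did not pass. The markers' summed level was 8899 to 9359 TPM in the Nop16 siRNA libraries, against 4857 to 5224 TPM in the control libraries. Lyz2 held most of that difference, at 4655 TPM after Nop16 siRNA and 1761 TPM in controls. None of the 3 B cell, 3 T cell or 3 epithelial markers reached the level for testing, and Cd3e, Cd8a, Krt8 and Krt18 were at 0 in all libraries. Of the 3 fibroblast markers Pdgfra was tested, and Col1a2 was at 0. Of the 3 neutrophil markers S100a8 and Csf3r were tested, and S100a9 was at 0, and of the 3 dendritic cell markers Zbtb46 was tested, none of these passing. Summed over each list, the Nop16 siRNA and control libraries held 10.5 to 11.8 and 8.86 to 13.3 TPM of neutrophil markers, and at most 1.33 TPM of each of the other 5 lists. The part of the macrophage markers' change in the Rab results was not tested.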

How the data were processed

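The authors deposited raw fragment counts for each gene from featureCounts 2.0.1 and Ensembl release 101 models of GRCm38, per the file headers. Per the same headers, counting used strand setting 2 with at least 10 bases of overlap, and it included fragments that map to several places or lie over several genes. The submitters' processing notes name HISAT2 2.2.1 and Trim Galore, that one without a version in the sources used here.

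Of 55401 genes, 55141 had a symbol and biotype in GENCODE release 21 for mouse, on the same build. The groups were compared in edgeR 4.0.16 under R 4.3.3 by its quasi-likelihood test (robust dispersion, TMM scaling, filterByExpr, no covariate), and Benjamini-Hochberg adjustment ran over all genes tested, with 0.05 as the threshold. CPM are TMM-scaled, TPM use the deposited gene lengths, and SE are on the log2 scale. The test was tried on simulated counts. It recovered 54% of 50 genes changed 1.2-fold and 98% of 50 changed 1.5-fold, with 13 false calls among 189. Pairs of libraries had a chi-square per degree of freedom of 2.52 to 3.15 within a group and 45.9 to 53.4 across groups, so no library was a copy of another. Near-identical copies were found with BLAST 2.17.0, and promoters are RefSeq's.

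The members, compartments, regulator lists and tests were chosen with earlier results of these data known. Values in every library are given for up to 14 Rab genes past the threshold with the largest change at a mean of at least 5 CPM, and for the most abundant Rab gene per length of each compartment. Rab39, Rab7b, Rab11b and Rab14, the other genes that fell, were added after their values were seen. Of each regulator list, up to 4 genes past the threshold with the largest change at that mean are named, apart from an item not reported here. The listed symbol Rab41 had no match. The alternatives were RLE factors, library size only, DESeq2 1.42.0, limma-voom (limma 3.58.1), no filter, 5 CPM in 3 libraries, robust dispersion off, a replicate block, a minimum fold of 1.2, protein-coding genes only, thinning to equal depth, and leaving out each library.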

Additional observations from a re-analysis of the deposited data

How the results depend on the processing

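Counts of Rab genes called higher were 22 to 25 and lower 5 under the scalings, tests, filters, robust dispersion off, protein-coding genes only and thinning, against 24 and 5. With a minimum fold of 1.2, 3 of 44 Rab genes were higher and 1 lower, and 13 of 119 regulators were higher and 8 lower. Over all 14269 genes tested, 1108 were higher and 1253 lower at that setting. Leaving out 1 library gave 21 to 23 Rab genes higher and 5 lower, 37 to 41 regulators higher and 20 to 26 lower, and 2918 to 3039 of all genes higher and 2899 to 3010 lower. With a replicate block, 23 Rab genes were higher and 5 lower, Rab23 being the call lost (adjusted p = 0.05), and 42 regulators were higher and 23 lower. The groups share only replicate numbers: same-numbered libraries deviated together with correlations of 0.017, -0.020 and -0.022. Without division by length, the shift in share was 1.81 points for Rab7, 2.99 for Rab22a and -6.01 for Rab32, in the same directions as with it. Leaving out 1 library, the shift for Rab11a was 7.16 to 8.48 points, for Rab3a 3.02 to 5.9, for Rab4a -3.29 to -2.55, for Rab8a -4.49 to -2.67, for Rab7 0.968 to 1.2, for Rab22a 1.94 to 2.43 and for Rab32 -5.4 to -4.64. The differences for Rab1a (-0.798 to 0.588) and Rab2a (-0.289 to 0.331) changed sign, and that for Rab5a was 0.348 to 0.756.

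The alternatives are not given for Ankfy1, Rabep1, Rabep2 and Gapvd1. No other called Rab gene, regulator, marker or copy named in the text reversed in any alternative. Besides the minimum fold, calls of Appl1, Rin2, Vps39, Vps41 and the copy Rab11b-ps2 were lost in 2, 7, 8, 6 and 8 alternatives, and S100a8 and Csf3r passed in 1 and 2. Of the alternatives, library size only moved the median log2 fold change of all genes most, to -0.023. Depth limits the 15 untested Rab genes and Rab15, Rab30 and Rab39, at under 5 CPM. With 3 libraries per group, shares could not pass 0.05, and a Rab gene that missed the threshold is not shown to be unchanged.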

Other observations

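The HOPS complex, which tethers late endosomes and lysosomes and binds Rab7, was picked out among the tethers after its values were seen. Of its 6 subunit genes, Vps11 (log2 fold change 0.33), Vps18 (0.31), Vps33a (0.28), Vps39 (0.13) and Vps41 (0.13) were higher, and Vps16 (-0.19) was lower (edgeR adjusted p = 3.49e-08, 2.25e-06, 5.60e-05, 0.0328, 0.0255 and 0.000591). Over all genes tested 23.0% were higher and 22.4% lower, and in the list of effectors and tethers 47.4% and 10.5%. The calls of Vps39 and Vps41 were lost in DESeq2, in scaling by library size only, with no filter, and without Nop16 siRNA replicate 2 or 3 or control replicate 2, and that of Vps39 also without control replicate 1 and among protein-coding genes only (adjusted p over ranges of 0.0199 to 0.171 for Vps39 and 0.0189 to 0.153 for Vps41). Vps11 had 90.1, 83.3 and 87.7 CPM in the Nop16 siRNA libraries, against 71.3, 70.3 and 66.3 CPM in the control libraries, with no overlap. Vps16 had 75.7, 71.5 and 72.6 CPM after Nop16 siRNA, against 82.2, 79.9 and 89.2 CPM in controls, also with no overlap. Vps8 and Tgfbrap1, in the same list but not among these subunits, did not pass. Their log2 fold changes were -0.130 and -0.023 (edgeR adjusted p = 0.122 and 0.774). Mon1a, which with CCZ1 loads GTP on Rab7, rose 1.39-fold (adjusted p = 0.000185), and Ccz1 did not pass (log2 fold change -0.055, adjusted p = 0.507).

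Around Rab5, Eea1, the tether of early endosomes, had 255.5, 261 and 269.7 CPM in the Nop16 siRNA libraries, against 196, 197 and 189 CPM in the control libraries, and rose 1.35-fold (adjusted p = 2.24e-17). The Rab5 GEF gene Rabgef1 rose 1.35-fold (adjusted p = 0.000132), whereas the Rab5 GEF genes Rin1, Rin2 and Rin3 were lower (at 0.435, 0.934 and 0.828 of the control level, adjusted p = 2.11e-10, 0.0366 and 3.16e-05). The call of Rin2 was lost in DESeq2, with thinning and on leaving out any library but Nop16 siRNA replicate 2 (adjusted p over a range of 0.0099 to 0.252). The Rab5 effectors Appl1 and Appl2 moved in opposite directions, with log2 fold changes of -0.18 and 0.27 (adjusted p = 0.0208 and 4.04e-08), and the call of Appl1 was lost without Nop16 siRNA replicate 2 or control replicate 3 (adjusted p over a range of 0.0091 to 0.123). In the list of effectors and tethers, Ankfy1, another Rab5 effector gene, was lower without overlap (log2 fold change -0.38, edgeR adjusted p = 1.06e-12). Rabep1 and Rabep2 of that list were higher (0.11 and 0.37, adjusted p = 0.0411 and 2.34e-05), as was the GEF gene Gapvd1 (0.12, adjusted p = 0.0143). The genes of this paragraph were chosen after their values were seen.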
